A study of Mus musculus with 37 samples.

Results

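Adult mice that received oral antibiotics together with morphine were compared with adult mice that received neither, by RNA sequencing of brain tissue. The comparison took every adult library labelled antibiotics and morphine with more than 1000000 counts (4 libraries, replicates 1, 2, 3 and 5) and every adult library labelled water and saline (3 libraries, replicates 1, 3 and 5), which makes 7 of the 37 libraries of the series. Replicate 4 of the antibiotics and morphine group held 58764 counts and was left out.

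All mice were male wild-type C57BL/6J, and treatment of the adults began on postnatal day 55. The antibiotics and morphine mice were given antibiotics by mouth and were injected subcutaneously with morphine at 15 mg/kg for 5 days. The water and saline mice stayed on water and were injected with saline for 5 days. The antibiotics are not named in the labels, and the sources used here do not give the time from the last injection to tissue collection. Brain is the labelled tissue, with all cell types, while the medial prefrontal cortex is named in the title of the series. The same design was run with antibiotics alone, with morphine alone, and in adolescents, which are used here for comparison.

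Morphine acts mainly through the mu opioid receptor, a G protein-coupled receptor that lowers cyclic AMP and quiets neurons, and repeated doses also raise circulating glucocorticoids. Oral antibiotics deplete gut bacteria, whose products act on the brain through the blood and through nerve signals and bear on microglia, the resident immune cells of the brain. The medial prefrontal cortex takes part in reward, stress and decision making, and its tissue holds neurons, astrocytes, microglia, oligodendrocytes and blood vessels, all of which contribute RNA to a whole-tissue library.

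Totals were 17467680, 13373978, 13971397 and 15406356 counts in the antibiotics and morphine libraries (replicates 1, 2, 3 and 5), and 13490318, 15291538 and 16924395 counts in the water and saline libraries (replicates 1, 3 and 5). Levels are given as CPM, the counts of a gene per 1000000 counts, on library sizes scaled by the trimmed mean of M values. Slc17a7, which loads glutamate into vesicles of cortical neurons, was at 1540 to 1595 CPM in the antibiotics and morphine libraries and 1576 to 1623 CPM in the water and saline libraries. Drd2, a receptor of striatal neurons, was at 0.517 to 2.69 CPM and at 0.942 to 1.12 CPM in the same groups. Antibiotics and morphine replicate 1 stood apart. Its first principal component score was -23.8, against -4.72 to 7.67 in the other 6 libraries, on a component that held 35% of the variance. Markers of meninges and fibroblasts, 14 genes of which 14 were highest in that library and 0 were at 0 in a water and saline library, summed to 626 CPM there, to 130 to 208 CPM in the other 3 antibiotics and morphine libraries and to 130 to 134 CPM in water and saline. The part of this RNA in the results was not tested, and list counts are also given without that library. Long nuclear RNAs also differed among the antibiotics and morphine libraries, with sums of 3767, 7872, 3965 and 7310 CPM (replicates 1, 2, 3 and 5), against 5494, 5943 and 5258 CPM in water and saline.

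Antibiotics with morphine changed a modest number of genes, most of them by little. Of 19332 genes tested, 289 passed an adjusted p of 0.05 in edgeR's quasi-likelihood test with Benjamini-Hochberg adjustment (1.49% of genes tested), 137 of them higher (0.709%) and 152 lower (0.786%) than in water and saline. Counts of called members in the gene lists below are to be read against these shares. The median size of the change among these 289 genes was 0.36 on the log2 scale, 217 of them moved by less than 0.5 and 19 by at least 1. Over all genes tested the median log2 fold change was 0.01, and 2761 of the 19332 had an unadjusted p below 0.05. CPM values of the groups did not overlap for 133 of the 137 higher genes (7.37% of all genes tested were higher without overlap) and for 148 of the 152 lower genes (7.17%). In whole tissue, fewer cells of a type and less RNA per cell cannot be told apart. The number of calls depended on single libraries. Without antibiotics and morphine replicate 1, 142 genes passed, 133 of them among the 289. Without replicates 2 and 3 of that group, 114 and 444 genes passed, and without water and saline replicates 1 and 3, 89 and 68 did. A set of 46 genes, 16 higher and 30 lower, passed in all 7 fits that left out 1 of the 7 libraries.

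**Figure D1:**
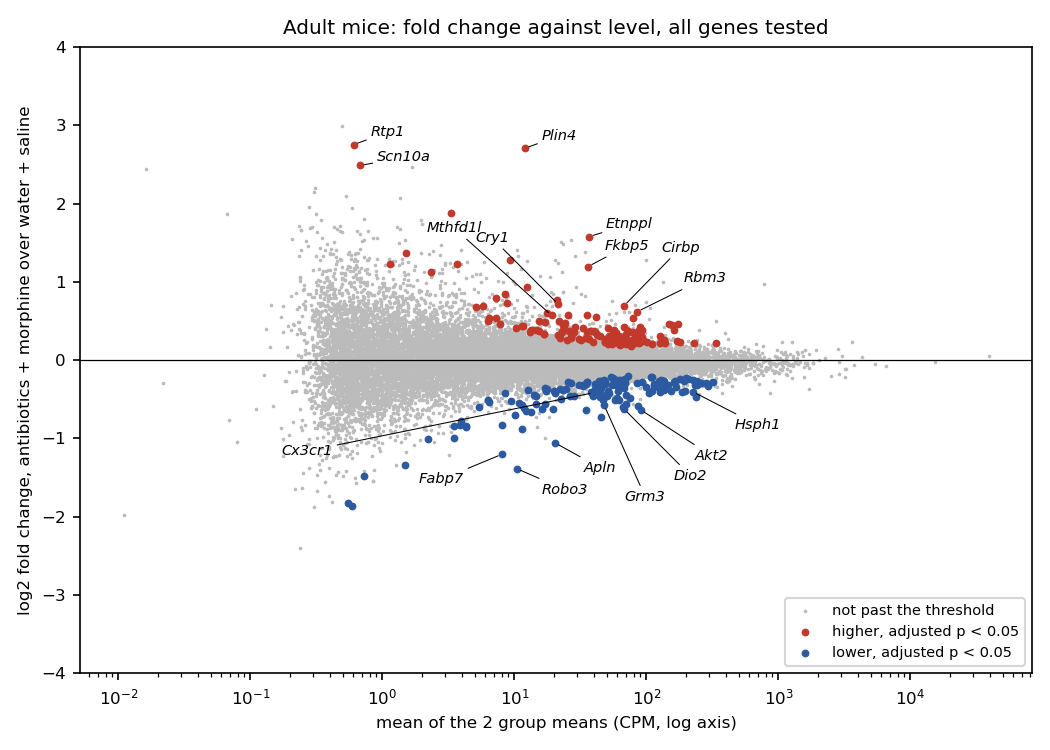
Each point is 1 of the genes tested, with the mean of the 2 group means on the horizontal axis (CPM, log axis) and the log2 fold change of adult antibiotics + morphine over water + saline on the vertical axis. The 137 higher (red) and 152 lower (blue) genes lie mostly within 0.5 of the line at 0, and 1 gene lies outside the vertical range.

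The glucocorticoid-responsive genes held the largest change at a moderate level. Plin4 (ENSMUSG00000002831, chr17:56100591-56109803 on GRCm38), which encodes a perilipin that coats lipid droplets, was at 22.3, 31.0, 12.9 and 17.3 CPM in the antibiotics and morphine libraries, against 2.46, 2.77 and 4.24 CPM in the water and saline libraries. The lowest library of the first group stood well above the highest of the second. Plin4 was 2.71 higher on the log2 scale (SE 0.36, adjusted p = 6.37e-05). Fkbp5 (ENSMUSG00000024222, chr17:28399094-28517527), a co-chaperone that binds the glucocorticoid receptor with Hsp90 and is itself induced by glucocorticoids, was at 57.8, 51.2, 44.8 and 47.8 CPM with antibiotics and morphine, against 19.7, 22.3 and 23.9 CPM with water and saline. Every library of the first group was above every library of the second, and the log2 fold change was 1.2 (SE 0.18, adjusted p = 0.000326). Both genes passed in all 7 fits that left out 1 library.

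Sult1a1, a sulfotransferase of phenols, was at 20.3, 12.4, 9.96 and 9.57 CPM in antibiotics and morphine libraries, against 4.76, 5.4 and 5.95 CPM in water and saline libraries (log2 fold change 1.28, SE 0.25, adjusted p = 0.00511). Replicate 1 of the antibiotics and morphine group was the highest, and the call was lost without water and saline replicate 1 (adjusted p = 0.0513). Sgk1, the serum- and glucocorticoid-induced kinase, was at 51.4, 82.7, 80.9 and 59.0 CPM, against 42.3, 34.4 and 44.2 CPM in water and saline, and did not pass (log2 fold change 0.76, SE 0.25, adjusted p = 0.116). Of the 28 glucocorticoid-responsive genes tested, 3 rose, 0 fell and 25 did not pass. The fold change was positive for 24 of the 28, with a median of 0.29 on the log2 scale, against 0.01 over all genes tested. Without antibiotics and morphine replicate 1, 3 rose and 0 fell. Plin4 shares exon sequence with Hdgfl2 on the other strand and Sult1a1 with Sgf29, so their reads may not be separable if counting ignored strand.

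Both cold-inducible RNA-binding proteins of the brain, which are made in greater amount when temperature drops, rose together. Rbm3 (ENSMUSG00000031167, chrX:8138975-8145880) was at 107, 100, 108 and 97.8 CPM with antibiotics and morphine, against 69.5, 61.4 and 70.8 CPM with water and saline (log2 fold change 0.62, SE 0.07, adjusted p = 6.76e-06). Cirbp (ENSMUSG00000045193, chr10:80165985-80172786) was at 96.2, 80.9, 80.2 and 76.7 CPM, against 48.8, 52.1 and 53.9 CPM in water and saline (log2 fold change 0.69, SE 0.09, adjusted p = 2.05e-05). Neither gene's groups came near each other, since the lowest antibiotics and morphine library was above the highest water and saline library by more than the range within either group. Rbm3os, the antisense transcript that overlaps Rbm3, rose as well (log2 fold change 0.77, SE 0.11, adjusted p = 5.13e-05), but its reads cannot be separated from those of Rbm3 if strand was ignored. The list also holds splicing kinases and factors whose RNA processing responds to temperature, and of its 11 members tested 2 rose, 0 fell and 9 did not pass, with a median log2 fold change of 0.12. Counts were 2 higher and 0 lower without antibiotics and morphine replicate 1. Among the members that did not pass was Clk1, a kinase of splicing factors, at 76.6, 94.5, 60.2 and 96.2 CPM against 54.1, 51.3 and 54.2 CPM in water and saline (log2 fold change 0.62, adjusted p = 0.0502), highest in the 2 libraries with the most long nuclear RNA. The part of nuclear RNA in that difference was not tested.

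Host genes of small nucleolar RNAs carry guides of ribosomal RNA modification in their introns. Of 18 tested, 3 rose and 0 fell, against 0.709% and 0.786% of all genes tested. The median log2 fold change of the list was 0.08, against 0.01 over all genes tested. Zfas1 was at 21.0, 23.6, 19.0 and 21.3 CPM with antibiotics and morphine, against 14.5, 13.2 and 14.2 CPM with water and saline (log2 fold change 0.60, SE 0.09, adjusted p = 0.000111). Its groups did not overlap and the call was made in all 7 fits that left out 1 library, but it overlaps Znfx1 on the other strand. Gas5 (log2 fold change 0.37, adjusted p = 0.0311) and Snhg3 (0.51, adjusted p = 0.0391) were less stable. Gas5 lost its call in 5 of the 7 fits and Snhg3 in 6, with adjusted p values from 0.0513 to 0.268 and from 0.0562 to 0.159. Exons of Snhg3 are shared with Rcc1 on the same strand, so its reads are uncertain with or without strand. Without antibiotics and morphine replicate 1, 1 of the 18 rose. Mir9-3hg, the host transcript of a copy of the neural microRNA miR-9, rose by 0.56 (SE 0.08, adjusted p = 0.000177), at 48.6, 54.4, 47.0 and 48.0 CPM against 33.3, 34.3 and 33.2 CPM in water and saline.

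A single gene of the circadian clock passed. Cry1 (ENSMUSG00000020038), a repressor of the core clock activators, was at 27.8, 27.4, 23.2 and 28.5 CPM in antibiotics and morphine libraries, against 13.1, 17.6 and 18.1 CPM in water and saline libraries. The groups were separate, and the log2 fold change of 0.71 (SE 0.11, adjusted p = 0.000177) was past the threshold in all 7 fits that left out 1 library. Per2, another repressor of the loop, was at 53.5, 59.4, 52.8 and 66.1 CPM with antibiotics and morphine, against 45.6, 57.0 and 56.4 CPM with water and saline, and its groups overlapped (log2 fold change 0.13, SE 0.10, adjusted p = 0.612). Of the 22 clock genes tested 1 rose, 0 fell and 21 did not pass, where 1.49% of all genes tested passed. The median log2 fold change of the list was 0.06, against 0.01 over all genes tested. The sources used here do not give the time of day of tissue collection. The 250 bases before the Cry1 start hold the palindromic E-box CACGTG, the letters that the clock activators bind, 60 to 55 bases before the start. Among 32851 such promoter windows of RefSeq on GRCm38.p6, searched on both strands, 6.02% hold CACGTG. Among tested genes with a window 9.20% do (1159 of 12594), as do 5 of the 18 clock genes, 12 of the 108 higher genes and 13 of the 115 lower genes that have one. The window, on the minus strand at chr10:85185055-85185304, is shown 5′ to 3′ with the E-box in capitals, because Cry1 was the clock gene that passed.
Cry1: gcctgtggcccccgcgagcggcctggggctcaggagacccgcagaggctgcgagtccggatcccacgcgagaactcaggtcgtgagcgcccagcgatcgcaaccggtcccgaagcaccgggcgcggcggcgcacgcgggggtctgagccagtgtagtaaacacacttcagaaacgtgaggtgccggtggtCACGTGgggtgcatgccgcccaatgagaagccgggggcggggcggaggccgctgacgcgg

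Mgea5 (ENSMUSG00000025220, chr19:45750259-45783837), which encodes the enzyme that removes O-linked N-acetylglucosamine from proteins, was at 162, 165, 176 and 177 CPM with antibiotics and morphine, against 226, 227 and 217 CPM with water and saline. It fell by 0.40 on the log2 scale (SE 0.05, adjusted p = 6.76e-06) and its groups were far apart relative to their spread, although it overlaps the predicted gene Gm15491 on the other strand. Akt2 (ENSMUSG00000004056, chr7:27591552-27640826), the kinase through which insulin drives glucose uptake, was at 69.3, 64.3, 82.7 and 66.9 CPM, against 106, 119 and 103 CPM in water and saline (log2 fold change -0.63, SE 0.08, adjusted p = 3.2e-05). Both calls were made in all 7 fits that left out 1 library. Over all genes tested, 1.49% passed and the median log2 fold change was 0.01. Of 24 genes of insulin and IGF signalling, 2 rose, 1 fell and 21 did not pass, with a median of 0.11. Those that rose were Rps6kb1, the S6 kinase (0.23, adjusted p = 0.037), and Igfbp3, a secreted binding protein of the insulin-like growth factors (0.93, adjusted p = 0.0333). Igfbp3 was at 25.7, 14.2, 13.2 and 12.2 CPM, against 9.23, 6.91 and 9.60 CPM in water and saline, with the highest value in the replicate that had the most meningeal RNA. Without that replicate 0 members rose and 1 fell, and each of the 2 higher calls was lost in 5 of the 7 fits, with adjusted p values up to 0.211 for Rps6kb1, which overlaps Rnft1 on the other strand, and 0.237 for Igfbp3.

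Mthfd1l (ENSMUSG00000040675, chr10:3973118-4167081), the mitochondrial enzyme that makes formate from folate-bound carbon, was at 22.1, 24.1, 20.4 and 24.8 CPM in antibiotics and morphine libraries, against 15.7, 16.3 and 14.2 CPM in water and saline libraries. The groups did not overlap, and it rose by 0.57 on the log2 scale (SE 0.08, adjusted p = 5.98e-05) and passed in all 7 fits that left out 1 library. Slc19a1, the reduced folate carrier, passed narrowly (log2 fold change 0.39, SE 0.11, adjusted p = 0.0466), with 20.6 CPM in antibiotics and morphine replicate 1 and 14.7 to 15.5 CPM in the other 3, against 12.4 to 13.0 CPM in water and saline. Its call was lost in 5 of the 7 fits that left out 1 library, with an adjusted p of 0.0659 to 0.233. Of the 25 genes of folate one-carbon metabolism tested, 2 rose, 0 fell and 23 did not pass. Over all genes tested, 1.49% passed. The median log2 fold change of the list was 0.07, and without antibiotics and morphine replicate 1 a single member rose.

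Lipid genes moved in both directions. Etnppl (ENSMUSG00000019232, chr3:130617448-130637521), an astrocyte enzyme that breaks down phosphoethanolamine, was at 52.2, 70.0, 46.2 and 53.5 CPM with antibiotics and morphine, against 14.5, 20.3 and 20.6 CPM with water and saline (log2 fold change 1.58, SE 0.21, adjusted p = 6.76e-05). Fabp7 (ENSMUSG00000019874, chr10:57784881-57788450), a fatty acid carrier of astrocytes and radial glia, was at 4.68, 4.35, 6.40 and 4.14 CPM, against 11.2, 11.8 and 10.7 CPM in water and saline (log2 fold change -1.2, SE 0.19, adjusted p = 0.000386). In both genes the groups were separated by a wide gap, upward in Etnppl and downward in Fabp7, and both calls were made in all 7 fits that left out 1 library. Of 25 genes of lipid and fatty acid handling, Plin4 among them, 2 rose and 2 fell, the second lower one being the desaturase Fads1 (log2 fold change -0.22, adjusted p = 0.0208), whose call was lost in 4 of the 7 fits. Counts of 2 higher and 2 lower were also obtained without antibiotics and morphine replicate 1.

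The cholesterol synthesis genes that passed were lower. Of 23 genes tested, 0 rose, 5 fell and 18 did not pass. Of the 23 fold changes 18 were negative, with a median of -0.18, against 0.01 over all genes tested. Srebf2, the transcription factor that switches the pathway on, was at 201, 197, 209 and 210 CPM in antibiotics and morphine libraries, against 234, 245 and 250 CPM in water and saline libraries (log2 fold change -0.25, SE 0.05, adjusted p = 0.00769). Every antibiotics and morphine library was below every water and saline library. Insig1, which retains the pathway's activator in the endoplasmic reticulum, fell by 0.33 (adjusted p = 0.0249). Hmgcs1, a synthase of the early pathway, and Dhcr7, the last reductase, fell by 0.47 and 0.46 (adjusted p = 0.0491 and 0.0424). Srebf2 passed in all 7 fits that left out 1 library, whereas Insig1, Hmgcs1 and Dhcr7 lost their calls in 5 or 6 of them, and without antibiotics and morphine replicate 1 a single member fell.

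The chaperones that passed, in the endoplasmic reticulum and in the cytosol, were lower. Calr (ENSMUSG00000003814, chr8:84841850-84846934), the calcium-binding chaperone of the endoplasmic reticulum, was at 208, 190, 232 and 227 CPM with antibiotics and morphine, against 265, 281 and 252 CPM with water and saline (log2 fold change -0.31, SE 0.06, adjusted p = 0.00338). Sel1l, an adaptor of the pathway that exports misfolded proteins for degradation, was at 158, 159, 173 and 167 CPM, against 189, 198 and 194 CPM in water and saline (log2 fold change -0.24, SE 0.05, adjusted p = 0.00788). Neither gene's groups overlapped, and both calls were lost without water and saline replicate 3 (adjusted p = 0.0596 for Calr and 0.0739 for Sel1l). Of 23 genes of endoplasmic reticulum stress tested, 18 had negative fold changes, with a median of -0.14, against 0.01 over all genes tested. In this list 0 rose, 2 fell and 21 did not pass. As many fell without antibiotics and morphine replicate 1. In the cytosol, Hsph1, a chaperone of the Hsp110 family, was at 176, 173, 202 and 220 CPM, against 257, 263 and 243 CPM in water and saline (log2 fold change -0.40, SE 0.06, adjusted p = 0.000386), and passed in all 7 fits that left out 1 library. Its relative Hspa4 fell by 0.24 (SE 0.06, adjusted p = 0.014) but lost the call in 4 of those fits, with an adjusted p of up to 0.0917. Of 23 cytosolic heat shock genes, 0 rose, 2 fell and 21 did not pass, with a median log2 fold change of -0.04, and 1 fell without antibiotics and morphine replicate 1.

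The endoplasmic reticulum stress element, CCAAT and CCACG with 9 bases between them, is read by the factors that switch on chaperones of this compartment. This pattern was found on either strand in 0.113% of the 32851 promoter windows, in 0.151% of tested genes with a window (19 of 12594) and in 7 of the 20 genes of the list that have a window, which are Calr, Canx, Creld2, Dnajc3, Hsp90b1, Hspa5 and Pdia6. Other elements were searched in the same way. The heat shock element was in 2 of 18 cytosolic heat shock genes (Hspd1 and Hspe1, not Hsph1), against 0.453% of tested genes. The glucocorticoid element core was in 3 of 24 glucocorticoid-responsive genes, against 4.77%. These were Map3k6, Mt1 and Sgk1, none past the threshold. The sterol element was in 0 of 15 cholesterol genes, against 0.0635%. The Calr window, on the minus strand at chr8:84846932-84847181 (RefSeq, GRCm38.p6), is shown because Calr was the member of the list with the smallest p. Its element, in capitals, is read on the reverse strand and lies 162 to 144 bases before the start.
Calr: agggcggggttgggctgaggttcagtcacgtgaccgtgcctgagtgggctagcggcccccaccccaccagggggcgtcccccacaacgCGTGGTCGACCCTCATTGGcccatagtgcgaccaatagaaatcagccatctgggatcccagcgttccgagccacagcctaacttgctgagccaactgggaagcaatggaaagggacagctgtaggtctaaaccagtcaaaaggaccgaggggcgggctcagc

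The microglial genes that passed were lower. Cx3cr1 (ENSMUSG00000052336, chr9:119901616-120069879), the fractalkine receptor through which microglia respond to neurons, was at 36.6, 32.0, 37.4 and 32.0 CPM with antibiotics and morphine, against 45.8, 46.7 and 45.5 CPM with water and saline (log2 fold change -0.41, SE 0.07, adjusted p = 0.00126). Itgam, the CD11b integrin subunit, was at 3.89, 1.99, 3.13 and 3.30 CPM, against 6.25, 4.94 and 5.48 CPM in water and saline (log2 fold change -0.84, SE 0.17, adjusted p = 0.00692). Tmem119, a membrane protein specific to resident microglia, was at 16.8, 12.7, 16.7 and 14 CPM, against 19.7, 20.5 and 19.3 CPM in water and saline (log2 fold change -0.39, SE 0.09, adjusted p = 0.0101). Groups were separate in these 3 genes. Fcrls, an Fc receptor-like scavenger of microglia, fell by 0.62 (adjusted p = 0.0162), with antibiotics and morphine replicate 3, at 18.6 CPM, inside the water and saline range of 17.9 to 22.3 CPM. Of 20 microglial genes tested, 0 rose, 4 fell and 16 did not pass. Of the 20 fold changes 17 were negative, with a median of -0.20, against 0.01 over all genes tested. The summed level of the list was 409 to 497 CPM in antibiotics and morphine libraries and 505 to 547 CPM in water and saline libraries. The groups overlapped in Csf1r, the receptor on which microglia depend for survival, at 92.3, 79.6, 89.9 and 87.7 CPM with antibiotics and morphine against 86.8, 94.8 and 89.4 CPM with water and saline (log2 fold change -0.05, adjusted p = 0.833).

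Cx3cr1 passed in all 7 fits that left out 1 library, but it overlaps Gm33858 on the other strand. Itgam overlaps the predicted gene Gm49368 on its own strand. Itgam lost its call without water and saline replicate 1 (adjusted p = 0.0598), Tmem119 without antibiotics and morphine replicate 2 or water and saline replicate 3 (up to 0.0826), and Fcrls without antibiotics and morphine replicate 1 or 2 or water and saline replicate 3 (up to 0.174). Without antibiotics and morphine replicate 1, 3 microglial genes fell. Inflammatory, complement and interferon lists, which overlap with microglial function, had 0 members past the threshold in edgeR of 14, 11 and 25 tested, with 3, 1 and 2 members at an unadjusted p below 0.05, and DESeq2 and limma-voom also called 0 in each. Over all genes, 2761 of the 19332 tested had an unadjusted p below 0.05 and 1.49% passed in edgeR.

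The astrocyte and thyroid hormone genes that passed were lower apart from Etnppl. Of 16 astrocyte markers tested, 1 rose and 2 fell. The median log2 fold change was -0.17, against 0.01 over all genes tested, and 11 of 16 were negative. Aqp4, the water channel of astrocyte endfeet, was at 54.4, 43.8, 62.1 and 50.6 CPM with antibiotics and morphine, against 79.7, 89.4 and 69.8 CPM with water and saline (log2 fold change -0.59, SE 0.15, adjusted p = 0.0321). Slc4a4, a sodium bicarbonate cotransporter, fell by 0.34 (SE 0.08, adjusted p = 0.0255). Groups did not overlap for either gene, by less than 2 CPM for Slc4a4, with 102 CPM in antibiotics and morphine replicate 3 and 103 CPM in water and saline replicate 5. Aqp4 lost its call in 5 of the 7 fits that left out 1 library and Slc4a4 in 4, with adjusted p values up to 0.214 and 0.29, and without antibiotics and morphine replicate 1 neither passed. The list summed to 4500 to 4959 CPM with antibiotics and morphine and to 4842 to 5653 CPM with water and saline.

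Among 12 genes of thyroid hormone transport and response, 0 rose, 3 fell and 9 did not pass, with a median log2 fold change of -0.18. Over all genes tested, 0.786% fell past the threshold. Slco1c1, which carries thyroxine across the blood-brain barrier, was at 42.4, 30.3, 42.9 and 39.6 CPM in antibiotics and morphine libraries, against 51.3, 55.4 and 50.5 CPM in water and saline libraries (log2 fold change -0.43, SE 0.09, adjusted p = 0.0078). Dio2, the astrocyte deiodinase that turns thyroxine into its active form, was at 54.7, 41.7, 64.1 and 52.1 CPM, against 87.5, 86.9 and 71.3 CPM in water and saline (log2 fold change -0.62, SE 0.14, adjusted p = 0.0152). Sema7a, a semaphorin of cortical neurons, was at 152, 159, 172 and 153 CPM, against 218, 214 and 198 CPM in water and saline (log2 fold change -0.40, SE 0.09, adjusted p = 0.0203). The groups of these 3 genes were separate. Each call was lost in some fits that left out 1 library, 2 for Slco1c1 (adjusted p of up to 0.0853), 3 for Dio2 (up to 0.125) and 4 for Sema7a (up to 0.121), and without antibiotics and morphine replicate 1, 2 of the 12 fell. Dio2 overlaps Gm26512 on the other strand.

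Dio2 is known as a cyclic AMP-induced gene, and its window holds the cyclic AMP response element TGACGTCA 95 to 88 bases before the RefSeq start, letters that 1.55% of the 32851 windows hold on either strand. It is shown in capitals, on the minus strand at chr12:90739039-90739288 (GRCm38.p6), since Dio2 had the largest change among the 3 thyroid hormone genes that fell. Among tested genes with a window, 2.83% hold these letters (356 of 12594), as do 6 of the 108 higher and 3 of the 115 lower genes that have one.
Dio2: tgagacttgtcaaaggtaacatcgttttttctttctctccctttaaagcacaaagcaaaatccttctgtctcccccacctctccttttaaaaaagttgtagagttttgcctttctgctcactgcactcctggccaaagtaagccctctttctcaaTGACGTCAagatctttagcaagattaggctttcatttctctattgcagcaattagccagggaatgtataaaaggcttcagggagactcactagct

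Transmitter receptors that changed were lower. Grm3 (ENSMUSG00000003974, chr5:9485541-9725170), a metabotropic glutamate receptor of neurons and astrocytes that lowers cyclic AMP, was at 37, 36.0, 41.2 and 39.4 CPM with antibiotics and morphine, against 51.7, 64.9 and 54.5 CPM with water and saline (log2 fold change -0.57, SE 0.08, adjusted p = 3.2e-05). Grm7, a presynaptic receptor of the same class, was at 33, 36.2, 38.5 and 41.4 CPM, against 50.5, 54.9 and 48.8 CPM in water and saline (log2 fold change -0.46, SE 0.08, adjusted p = 0.00155). Gria4, a subunit of AMPA receptors, was at 85.2, 88.4, 93.3 and 90.5 CPM, against 116, 123 and 119 CPM in water and saline (log2 fold change -0.42, SE 0.08, adjusted p = 0.00575). All 3 were separate between the groups by a clear margin. Grin2c, an NMDA receptor subunit of astrocytes and cerebellum, fell by 0.39 (adjusted p = 0.0311). Of 34 glutamate receptor and AMPA auxiliary subunit genes, 0 rose, 4 fell and 30 did not pass, with a median log2 fold change of -0.12, and without antibiotics and morphine replicate 1, 3 fell.

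Over all genes tested, 0.786% fell past the threshold. Of 21 genes of GABA receptors and handling, 0 rose and 1 fell, also without antibiotics and morphine replicate 1. The one was Gabra2, a GABA-A receptor subunit, at 34.4, 39.2, 40.1 and 41.4 CPM with antibiotics and morphine, against 55.7, 56.3 and 54.1 CPM with water and saline (log2 fold change -0.51, SE 0.10, adjusted p = 0.0055). The gap between its groups was wider than the range within either. Grm3, Grm7 and Gabra2 passed in all 7 fits that left out 1 library, Gria4 in all but the fit without water and saline replicate 3 (adjusted p = 0.0542), and Grin2c lost its call in 5 (up to 0.237). Grm7 overlaps Gm20387 on the other strand, and Gria4 overlaps Gm23811 on its own strand.

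Tubb3, the neuronal beta tubulin, was at 259, 227, 283 and 261 CPM with antibiotics and morphine, against 308, 328 and 336 CPM with water and saline (log2 fold change -0.33, SE 0.07, adjusted p = 0.00532). Tubb2b, a tubulin of growing neurons, fell by 0.73 (SE 0.15, adjusted p = 0.00788), and its call was lost without water and saline replicate 3 (adjusted p = 0.0739). The 2 tubulins were the members that fell of 15 immature neuron genes, of which 0 rose, and 2 fell without antibiotics and morphine replicate 1. Ncan, the brain proteoglycan neurocan, fell by 0.29 (SE 0.06, adjusted p = 0.0101), as the single member called of 18 matrix genes, and lost its call without antibiotics and morphine replicate 1 or water and saline replicate 3 (up to 0.105), so that 0 matrix genes passed without that antibiotics and morphine replicate.

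Vegfa, the main growth factor of blood vessels, was at 45.9, 47.2, 45.1 and 54.1 CPM in antibiotics and morphine libraries, against 72.5, 67.6 and 64.5 CPM in water and saline libraries (log2 fold change -0.50, SE 0.09, adjusted p = 0.00152). Apln, which encodes the vessel-derived peptide apelin, was at 12.4, 9.30, 18.2 and 12.7 CPM, against 31.0, 29.96 and 21.2 CPM in water and saline (log2 fold change -1.05, SE 0.18, adjusted p = 0.00155). Both were separate between groups, Apln by the smaller margin, and both passed in all 7 fits that left out 1 library. They are known targets of hypoxia, and of the 19 hypoxia-inducible genes tested 2 fell and 1, Mxi1, rose (0.23, adjusted p = 0.011, lost in 3 of the 7 fits, and overlapping Gm10197 on the other strand), with a median log2 fold change of 0.11. Without antibiotics and morphine replicate 1, 2 fell and 0 rose. Over all genes tested, 1.49% passed. Of 16 endothelial markers, Slco1c1 alone passed. Mural cell markers, 12 genes with 0 called, summed to 671 CPM in antibiotics and morphine replicate 1 and to 210 to 320 CPM in the other 3, against 257 to 299.6 CPM in water and saline.

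Further genes with small p values and no place in the lists were Eml2, which binds microtubules (log2 fold change 0.39, adjusted p = 6.76e-05), and Deaf1, a transcription factor (0.41, adjusted p = 0.000386). Lower genes included Tufm, the mitochondrial translation elongation factor (-0.35, adjusted p = 0.000508), Pak7, a brain kinase of the cytoskeleton (-0.48, adjusted p = 0.000893), and Dpp9, a cytosolic dipeptidyl peptidase (-0.36, adjusted p = 0.000952). The lipase Abhd2 (-0.38, adjusted p = 0.000861), the nucleotidase Nt5c3b (-0.36, adjusted p = 0.000548) and Igdcc4, an immunoglobulin family member (-0.39, adjusted p = 0.000554), were lower as well. Each of these 8 genes passed in all 7 fits that left out 1 library. Nt5c3b, which overlaps Fkbp10 on the other strand, was at 21.1, 21.3, 21.6 and 21.7 CPM in antibiotics and morphine libraries, against 27.4, 27.9 and 27.3 CPM in water and saline libraries.

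Other genes with large fold changes were at lower levels than Plin4 or Etnppl. Rtp1, a transport protein for olfactory receptors, was at 1.07, 1.48, 1.16 and 0.582 CPM with antibiotics and morphine, against 0, 0.132 and 0.294 CPM with water and saline, where the library with a count of 0 allows a level of up to 0.223 CPM (log2 fold change 2.75, SE 0.67, adjusted p = 0.0249). Scn10a, a sodium channel best known from sensory neurons, was at 1.01, 1.99, 0.509 and 1.1 CPM, against 0.298, 0.198 and 0.118 CPM in water and saline (log2 fold change 2.49, SE 0.57, adjusted p = 0.0169). Wnt10b, a Wnt ligand, was at 5.30, 7.82, 2.76 and 4.85 CPM, against 1.56, 1.91 and 0.766 CPM in water and saline (log2 fold change 1.89, SE 0.39, adjusted p = 0.00788). The groups of these 3 genes did not overlap. Robo3, an axon guidance receptor, was at 3.38, 6.27, 7.27 and 6.14 CPM, against 18.8, 16.1 and 10.1 CPM in water and saline (log2 fold change -1.38, SE 0.35, adjusted p = 0.0401). Ccdc105, Ccdc188 and Def6 fell by 1.48, 1.34 and 1.00 at levels of at most 3.42 CPM in any library (adjusted p = 0.0381, 0.0149 and 0.0391). Ccl17, a T cell chemokine, rose by 1.37 (adjusted p = 0.0421), with groups that overlapped, since antibiotics and morphine replicate 5 was at 1.23 CPM and water and saline replicate 1 at 1.34 CPM. Calls were lost without water and saline replicate 5 for Wnt10b (adjusted p = 0.0742) and in 3 to 7 of the 7 fits for the other low-level genes, with adjusted p values up to 0.154 for Rtp1, 0.125 for Scn10a, 0.188 for Robo3 and 0.313 for Ccl17.

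**Figure D2:**
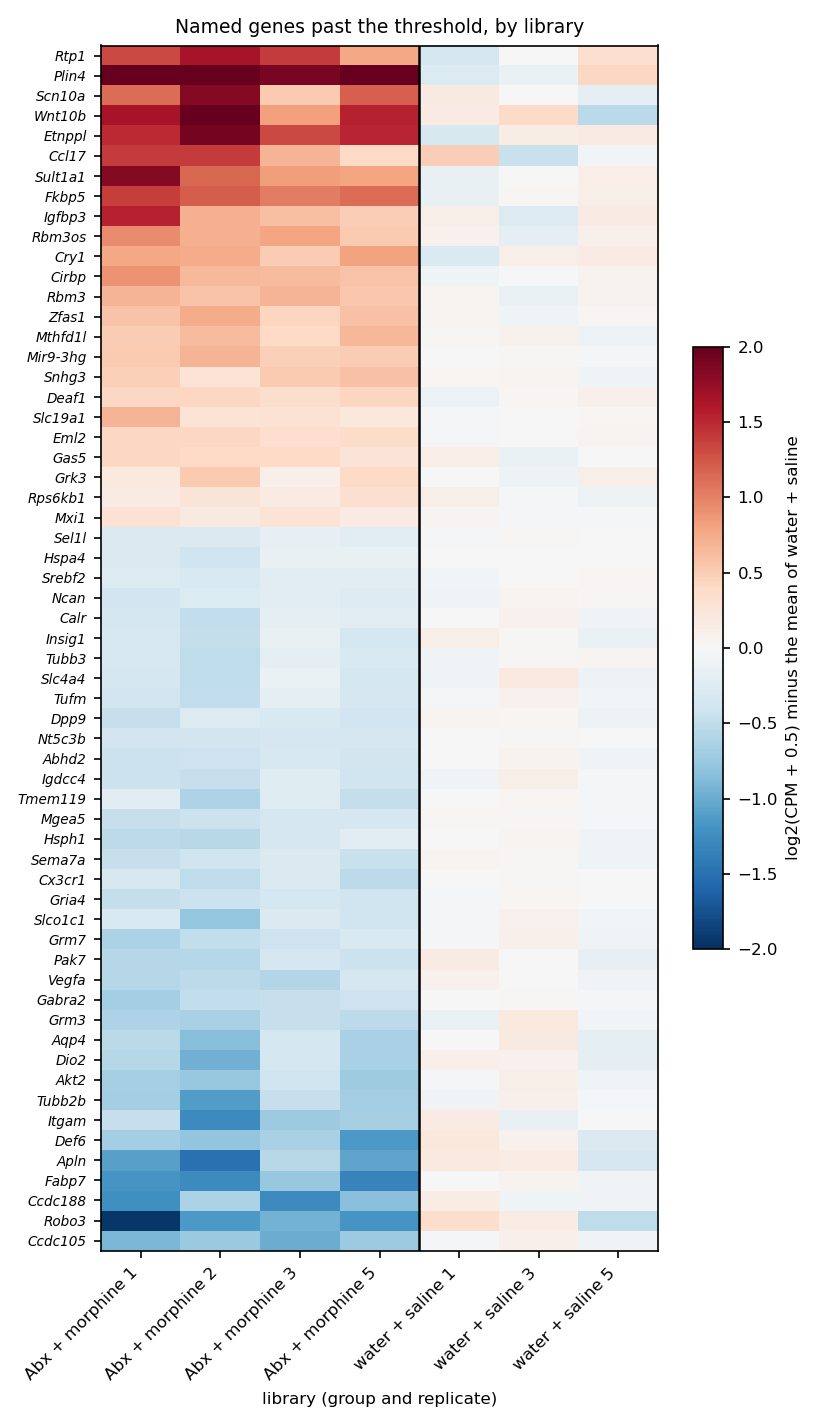
Rows are 60 named genes past the threshold, columns the 4 antibiotics + morphine (Abx + morphine) libraries and then the 3 water + saline libraries, and colour is log2(CPM + 0.5) minus the mean of the water + saline libraries. The 4 left columns are mostly red or mostly blue within a row, strongest for Plin4, Wnt10b and Etnppl, while the 3 right columns are nearer to 0.

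In edgeR, 0 opioid receptor, opioid peptide or immediate early genes passed the threshold, where 1.49% of all genes tested did. In lists this short, 0 calls are close to that share. Oprm1, the mu opioid receptor, was at 3.49, 2.29, 3.34 and 5.11 CPM with antibiotics and morphine, against 4.17, 3.29 and 4.83 CPM with water and saline (log2 fold change -0.20, SE 0.19, adjusted p = 0.709). Fos, an immediate early gene, was at 19.7, 19.9, 20.8 and 35.6 CPM, against 14.4, 16.5 and 29.5 CPM in water and saline (log2 fold change 0.24, SE 0.42, adjusted p = 0.852). Groups overlapped for both, and Oprm1 shares exon sequence with Ipcef1 on the other strand. Of 10 opioid receptor and peptide genes, 0 passed in edgeR, DESeq2 or limma-voom and 3 had an unadjusted p below 0.05, with a median log2 fold change of -0.11. Of 29 immediate early genes, 0 passed in edgeR, 7 had an unadjusted p below 0.05, and DESeq2 and limma-voom each called 2 higher. Their median log2 fold change was 0.14, against 0.01 over all genes tested, and 24 of the 29 were positive. Over all genes, 2761 of the 19332 tested had an unadjusted p below 0.05. Among 34 cyclic AMP and opioid effectors, 1 rose, Grk3, a kinase that desensitizes receptors (log2 fold change 0.31, SE 0.08, adjusted p = 0.0346), at 129, 161, 120 and 149 CPM against 112, 105 and 121 CPM in water and saline. Its groups overlapped and its call was lost in 4 of the 7 fits that left out 1 library, with an adjusted p of up to 0.269. Of 20 myelin genes, 0 passed in edgeR, DESeq2 or limma-voom, and 0 had an unadjusted p below 0.05. The myelin protein Mbp varied widely, at 930 to 1519 CPM with antibiotics and morphine and 828 to 1248 CPM with water and saline.

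**Figure D3:**
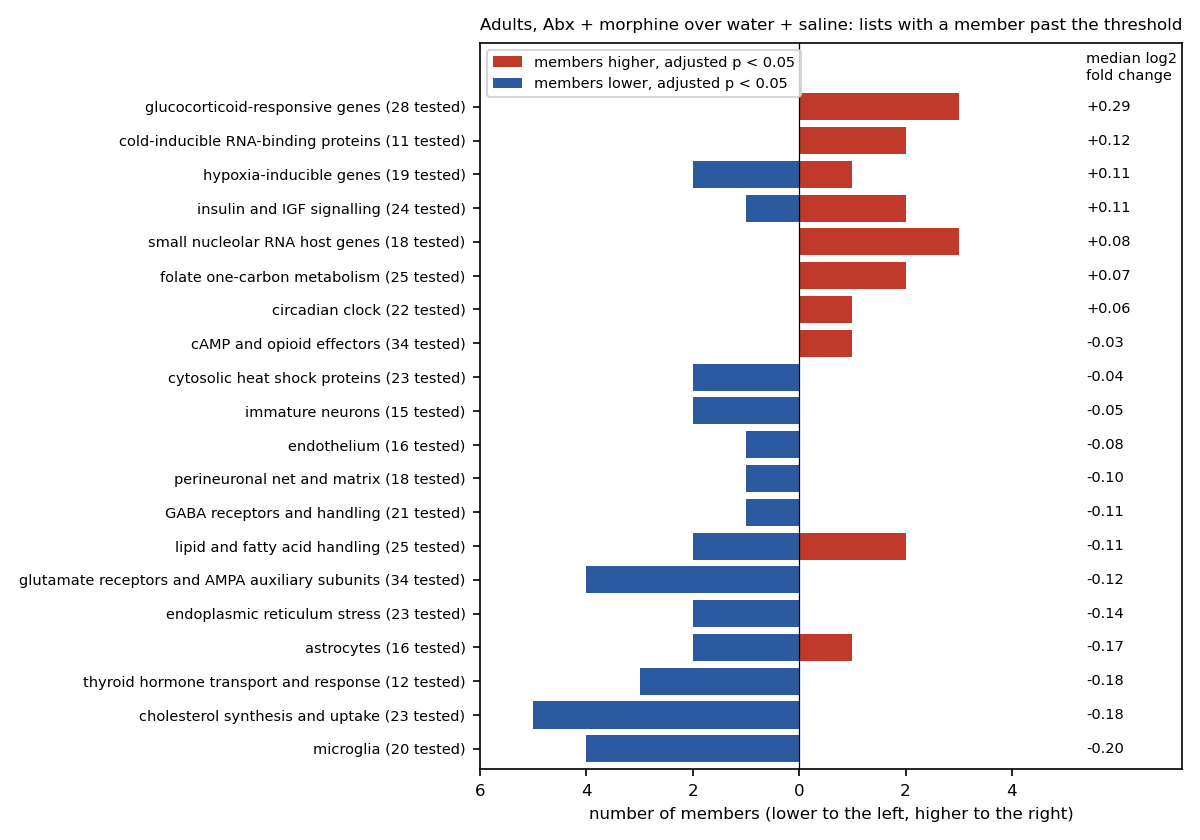
For each gene list with a member past the threshold, bars count members that were lower (left, blue) or higher (right, red) in adult antibiotics + morphine (Abx + morphine) than in water + saline, with the median log2 fold change of all tested members at the right. Glucocorticoid-responsive genes have the highest median, 0.29, and microglia the lowest, -0.20, against 0.01 over all genes tested. Over all genes tested, 0.709% were higher and 0.786% lower past the threshold.

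Whether both treatments together differed from the sum of each alone was tested as an interaction on the log2 scale, with adult mice given antibiotics with saline (5 libraries) or morphine with water (5 libraries). Treatment of these groups also began on postnatal day 55, with 5 days of injections. A single gene passed (0.00517% of 19332 tested). Ppp1r10, a nuclear regulatory subunit of protein phosphatase 1, was at 44.3, 40.9, 38.9 and 39.7 CPM with antibiotics and morphine, averaged 46.6 ± 1.30 CPM with antibiotics and saline and 51.2 ± 2.03 CPM with water and morphine (SD, n = 5 each), and was at 47.3, 43.8 and 43.8 CPM with water and saline. The interaction was -0.37 (SE 0.07, adjusted p = 0.0318), and the gene did not pass in the comparison of both treatments with neither (log2 fold change -0.13, adjusted p = 0.188). At an unadjusted p below 0.05 the interaction had 735 of the 19332 genes tested, where chance alone gives a share of about 0.05. DESeq2 and limma-voom each called 1 gene, and 0 were called in 10 of the 17 fits that left out 1 library. Those were the fits without antibiotics and morphine replicate 2, 3 or 5, antibiotics and saline replicate 1, 2 or 3, water and morphine replicate 1 or 5, or water and saline replicate 3 or 5. None of the 61 named genes past the threshold passed the interaction test, which does not show that the treatments added up.

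The single-treatment comparisons share the water and saline libraries with the combined one, so their values are given side by side. In edgeR, antibiotics alone called 6 of 19332 genes (0.031%) and morphine alone called 0 (0.0%). Unadjusted p values below 0.05 were found for 1694 of the 19332 with antibiotics alone and 559 with morphine alone. Chance alone gives a share of about 0.05. DESeq2 and limma-voom were not run on these comparisons. The 6 were Rbm3, Rbm3os, Cirbp, Plin4, Etnppl and Zfas1, and all 6 were higher. Plin4 averaged 20.9 ± 7.78 CPM with antibiotics and morphine (n = 4), 11.3 ± 4.46 CPM with antibiotics and saline (n = 5), 4.85 ± 2.28 CPM with water and morphine (n = 5) and 3.15 ± 0.953 CPM with water and saline (SD, n = 3). The log2 fold change over water and saline was 2.71 for both treatments, 1.83 for antibiotics (adjusted p = 0.0421) and 0.63 for morphine (adjusted p = 1.00), with an interaction of 0.24 (SE 0.45). Etnppl averaged 55.5 ± 10.2, 44.3 ± 12.5, 17.3 ± 2.37 and 18.5 ± 3.43 CPM in the same order of groups, with fold changes of 1.58 for both treatments, 1.25 for antibiotics (adjusted p = 0.00758) and -0.09 for morphine (adjusted p = 1.00). In these genes the antibiotics and saline mean lay nearer to that of both treatments than to that of water and saline in Etnppl, and about midway in Plin4. Fkbp5 averaged 50.4 ± 5.57, 38.8 ± 9.32, 24.97 ± 5.08 and 21.96 ± 2.11 CPM in the same order of groups. Its log2 fold changes were 1.2 for both treatments, 0.81 for antibiotics (adjusted p = 0.0744) and 0.19 for morphine. Sult1a1 gave 1.28, 0.79 and 0.37 in that order, and Sgk1 gave 0.76, 0.63 and 0.60. Fkbp5, Sult1a1 and Sgk1 did not pass for either treatment alone. Whether the single treatments differed from each other was not tested.

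Rbm3 gave 0.62 for both treatments, 0.45 for antibiotics (adjusted p = 0.00244) and 0.05 for morphine (adjusted p = 1.00). Cirbp gave 0.69, 0.49 (adjusted p = 0.00825) and -0.05 (adjusted p = 1.00) in that order, and Zfas1 gave 0.60, 0.67 (adjusted p = 5.42e-05) and 0.10 (adjusted p = 1.00). Mthfd1l averaged 22.9 ± 1.98 CPM with both, 18.1 ± 1.03 CPM with antibiotics, 20.2 ± 0.832 CPM with morphine and 15.4 ± 1.07 CPM with neither, for log2 fold changes of 0.57, 0.24 (adjusted p = 0.303) and 0.39 (adjusted p = 0.243). Cry1 averaged 26.7 ± 2.41, 19.7 ± 1.36, 20.7 ± 1.09 and 16.3 ± 2.74 CPM in that order, for log2 fold changes of 0.71, 0.27 (adjusted p = 0.413) and 0.34 (adjusted p = 1.00).

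Among lower genes, Grm3 gave -0.57 for both treatments, -0.26 for antibiotics (adjusted p = 0.187) and -0.05 for morphine (adjusted p = 1.00), with an interaction of -0.25 (SE 0.10). Akt2 gave -0.63, -0.32 (adjusted p = 0.134) and -0.10 (adjusted p = 1.00), and Fabp7 gave -1.2, -0.67 (adjusted p = 0.154) and 0.02 (adjusted p = 1.00), with an interaction of -0.54 (SE 0.25). Cx3cr1 averaged 34.5 ± 2.89 CPM with both treatments, 39.1 ± 1.95 CPM with antibiotics, 42.7 ± 2.41 CPM with morphine and 46.0 ± 0.613 CPM with neither. Of these 4 lower genes, 0 passed for a single treatment.

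**Figure D4:**
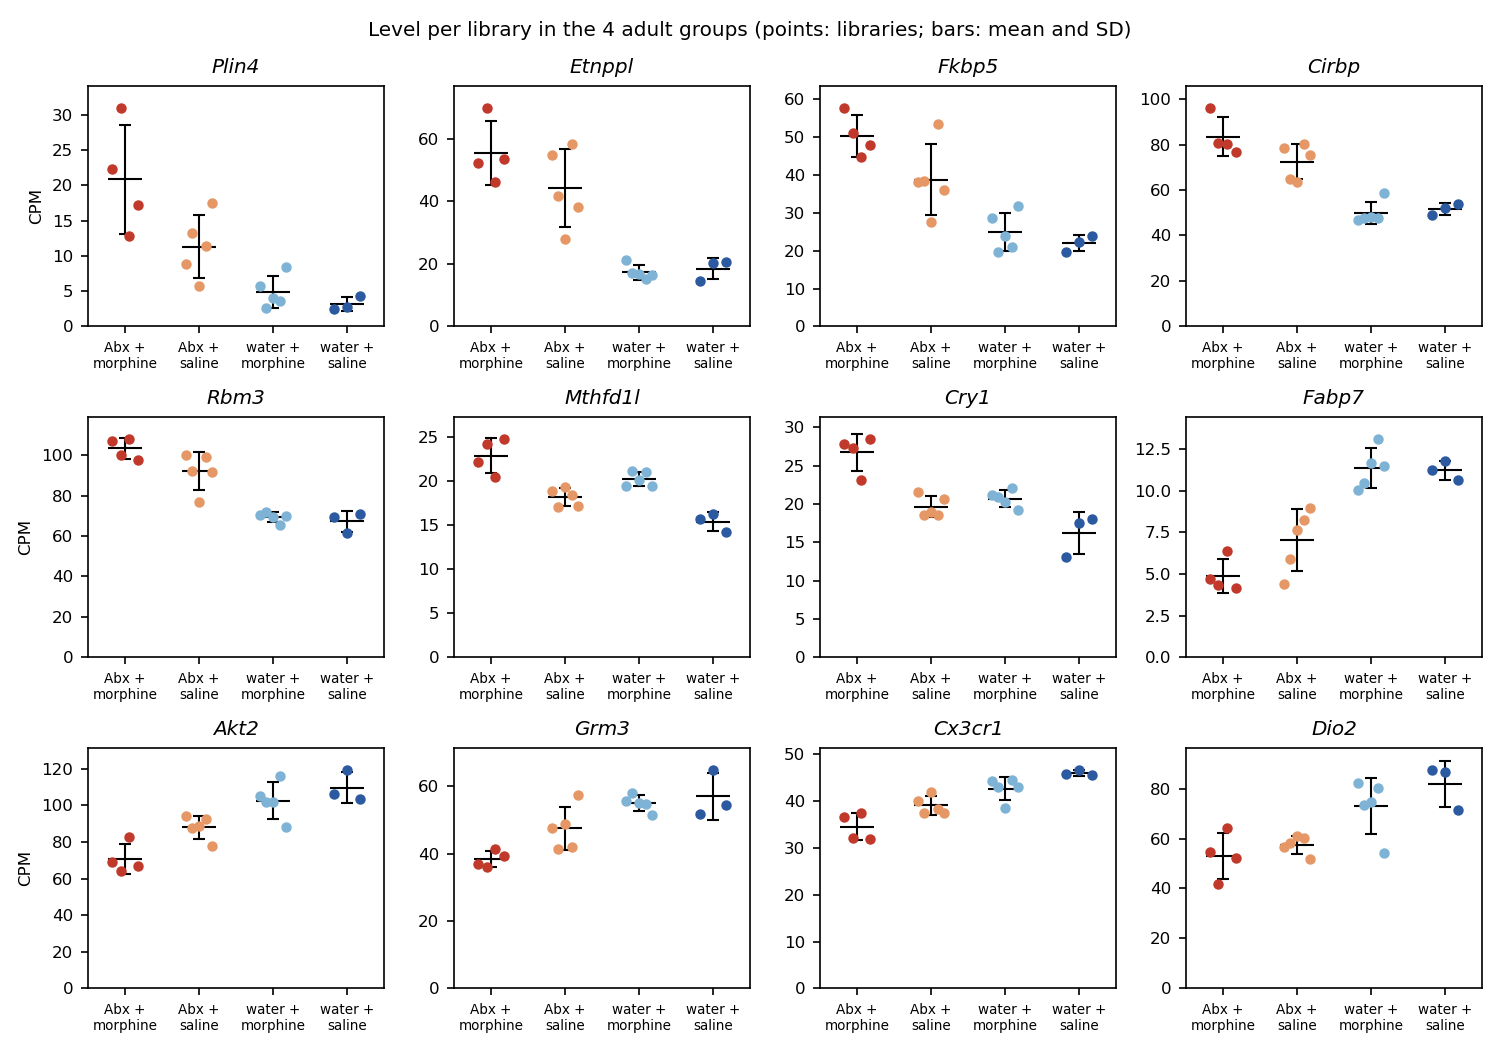
Level of 12 named genes (CPM) in each library of the 4 adult groups, from both treatments (Abx + morphine, left) over each alone to water + saline (right), with bars at the mean and 1 SD. Rbm3 averages 103, 92.1, 69.4 and 67.2 CPM from left to right, and Mthfd1l averages 22.9, 18.1, 20.2 and 15.4 CPM.

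Adolescent mice, whose treatment began on postnatal day 25, gave a second comparison of the same treatments, whose 5 antibiotics and morphine and 5 water and saline libraries share none with the adult comparison. In adolescents 1490 of 19332 genes passed (7.71%), 647 higher (3.35%) and 843 lower (4.36%). Of the 289 adult calls, 267 (92.4%) had the same sign in adolescents, against 60.0% of all genes tested. Of the same 289, 165 also passed in adolescents in the same direction, which is 57.1% of the adult calls and 11.1% of the adolescent calls, and 0 passed in the opposite direction. Adolescent water and saline replicate 1 stood apart from the other libraries, with a median correlation of 0.963 with them, against 0.983 or more for each other library (a description across genes). Without it 163 of the 289 passed in adolescents in the same direction, of 1530 adolescent calls. That library also enters the spread shared by all groups, and without it 647 genes passed in adults, 264 higher and 383 lower, the 289 among them.

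The test of the difference between the ages called 0 genes with edgeR, 3 with DESeq2 and 0 with limma-voom. In edgeR, 1678 of the 19332 genes tested had an unadjusted p below 0.05. Rbm3 had a log2 fold change of 0.62 in adults and 0.65 (SE 0.06) in adolescents. Leaving out adolescent antibiotics and morphine replicate 1 or 2 lowered the adolescent count to 760 or 991. Plin4 (2.24), Etnppl (1.22), Fkbp5 (0.94), Mthfd1l (0.55), Cry1 (0.58), Grm3 (-0.52), Akt2 (-0.48), Cx3cr1 (-0.41), Fabp7 (-1.43), Calr (-0.35) and Dio2 (-0.67) also passed in adolescents, where these are their log2 fold changes. Other genes passed in adults and not in adolescents, among them Pak7 (-0.06 in adolescents, adjusted p = 0.641), Gria4 (-0.06, adjusted p = 0.676), Sema7a (-0.01, adjusted p = 0.977), Insig1 (0.01, adjusted p = 0.954) and Robo3 (0.47, adjusted p = 0.36). Their age differences did not pass the test, with adjusted p values of 0.315 to 0.42.

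**Figure D5:**
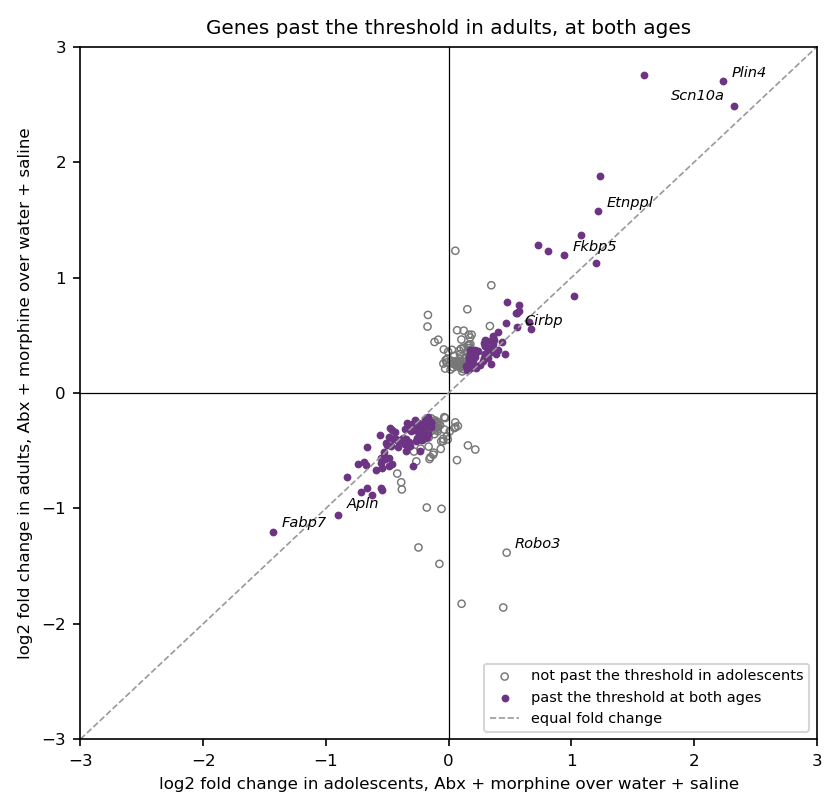
Log2 fold change of antibiotics + morphine over water + saline in adults (vertical) against adolescents (horizontal) for the 289 genes past the threshold in adults. Filled points (165) also passed in adolescents and lie in the quadrants of equal sign, and open points did not, Robo3 among them.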

How the data were processed

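RNA was extracted from brain with the Qiagen RNeasy Mini kit and polyadenylated RNA was made into libraries (ABclonal Fast RNA-seq Lib Prep V2), per the labels' protocols. The deposited table holds whole-number counts per Ensembl gene for 56980 genes in 37 libraries. STAR 2.7.10a, DESeq2 and the mm10 build are named per the submitters' processing notes. The use of strand and the annotation release were not given in the sources used here. Symbols were matched by gene ID to GENCODE M21 for 52073 genes, and the other 4907 genes hold 3.86% of the counts.

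The raw counts of the 35 libraries above 1000000 counts (10630727 to 31560468 in total) were fitted with a robust quasi-likelihood model in edgeR 4.0.16 (R 4.3.3) with TMM scaling, filterByExpr and 1 mean per group for 8 groups, so that all groups share 1 estimate of the spread. Adult antibiotics and morphine replicate 4 and adolescent antibiotics and saline replicate 3 were left out. The threshold was a Benjamini-Hochberg adjusted p of 0.05, and the SE is the log2 fold change divided by the square root of F. All log2 fold changes and p values in the text are from this fit unless another tool is named. The fit was tested on simulated data with known changes. DESeq2 1.42.0, limma 3.58.1 (voom with sample weights), other sets of libraries, no filter, DESeq2 size factors, a replicate block and leaving out each library were tried as alternatives, and the 33-library set was chosen after seeing the data. Nothing states that replicates are separate animals, so p values measure the spread between these samples. Replicate pairs differed by more than counting noise (chi-square per degree of freedom of 2.91 to 12.0), so none was counted as a duplicate.

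The comparison and the 54 gene lists were chosen with earlier results of these data known. Named genes were, per direction, the 12 called genes of smallest adjusted p and the 6 of largest change, taken from those with at least 1 CPM in the higher group and a usable symbol, up to 3 called members of each list by smallest p, up to 6 called genes of each difference test, and Fos, Fkbp5, Sgk1, Oprm1, Mthfd1l, Per2, Cirbp, Rbm3, Etnppl, Mbp and Cx3cr1. Fcrls, Grin2c, Hmgcs1, Dhcr7, Fads1, Clk1, Csf1r, Slc17a7 and Drd2 fall outside this rule and were chosen after their values were seen. Gene coordinates are those of GENCODE M21 on GRCm38 (mm10). Promoter windows of 250 bases are from RefSeq on GRCm38.p6 and were found for 223 of the 289 called genes. A further gene within the rule is not reported here.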

Additional observations from a re-analysis of the deposited data

Results flagged for a closer look

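In groups of 4 libraries, a value is listed here where the highest or lowest library lies apart from the other 3 by more, as a share of the group's range, than the 95% critical value of Dixon's test. This was checked in 120 groups of values, 12 met it, and chance gives about 1 in 20. Antibiotics and morphine replicate 1 was apart in 6 of them. Its Igfbp3 level was 25.7 CPM, against 12.2 to 14.2 CPM in replicates 2, 3 and 5, and Slc19a1 was at 20.6 CPM against 14.7 to 15.5 CPM. The summed level of the meningeal and fibroblast markers was 626 CPM there and 130 to 208 CPM in the others, that of the choroid plexus markers was 14 against 4.14 to 5.76 CPM, that of the complement genes was 266 against 143 to 160 CPM, and that of the inflammatory genes was 103 against 78.8 to 81.8 CPM.

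Antibiotics and morphine replicate 5 was apart in 4. Gas5 was lowest there, at 58.1 CPM against 63.9 to 64.8 CPM, and Fos was highest, at 35.6 CPM against 19.7 to 20.8 CPM. The immediate early genes summed to 2270 CPM there and to 1790 to 1845 CPM in the others, and the cold-inducible list summed to 2265 CPM against 2128 to 2148 CPM. Excitatory neuron markers were highest in replicate 3, with a sum of 9155 CPM against 8175 to 8311 CPM, and cortical layer markers lowest in replicate 2, with 1055 CPM against 1093 to 1095 CPM.

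Ppp1r10 alone passed the interaction test in adults, with a difference of -0.37 on the log2 scale (SE 0.07, adjusted p = 0.0318, edgeR's quasi-likelihood test). The call was not made with all 37 libraries, with 1 age, without the filter or in most fits that left out 1 library. The gene averaged 40.9 ± 2.38 CPM with both treatments (n = 4), 46.6 ± 1.30 CPM with antibiotics alone (n = 5), 51.2 ± 2.03 CPM with morphine alone (n = 5) and 45 ± 2.06 CPM with neither (SD, n = 3).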

How the results depend on the processing

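The count of 289 genes stayed within 1.5 times with all 37 libraries (215), the libraries of 1 age (313), the 2 groups alone (196), DESeq2 size factors (285), the replicate block (261) and the 33 libraries left after removing both that stand apart (301, chosen after seeing the data). It was 647 without adolescent water and saline replicate 1, 490 with DESeq2, 829 with limma-voom and 176 without a filter on low counts, and 68 to 444 when 1 library was left out. Similar counts did not mean the same genes. Of the 289 calls, 117 were made again with the 2 groups alone, 220 with 1 age and 214 with 33 libraries. With all 37 libraries 210 were made again, with the replicate block 240 and with DESeq2 size factors 281. The share of calls that were higher was 47.4%, against 34.7% with the 2 groups alone and 33.5% without the filter. The interaction had 1 call, and 0 with all 37 libraries, with 1 age and without the filter, and 0 to 1 when 1 library was left out. The age difference had 0 calls, 3 with DESeq2, 2 without the filter and 0 to 2 when 1 library was left out. The adolescent count of 1490 was 981 with 1 age, 499 with the 2 groups alone, 960 without the filter and 760 to 1719 when 1 library was left out. The cause of these differences was not tested. Fits with fewer groups estimate the spread from fewer libraries. An age difference within 1 age cannot be had.

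Of the 61 named genes past the threshold, 0 changed sign in any alternative. Those that lost the call numbered 22 with the 2 groups alone, 10 without the filter, 9 with 1 age, 9 with 33 libraries, 7 with DESeq2, 5 with 37 libraries, 4 with the replicate block, and 0 with 34 libraries, limma-voom or DESeq2 size factors. Sgk1 passed with limma-voom (adjusted p = 0.0317). Leaving out 1 library ended the call in 107 of 427 cases. Same-numbered libraries of the 2 groups did not deviate together (r of -0.04, 0.04 and 0.08 over 12513 genes). With so few libraries this cannot exclude a pairing by number, which the labels do not state. With the replicate block, the interaction had 1 call, the age difference 0 and adolescents 1331.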
